A study of Homo sapiens with 8 samples.

Results

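NRF2, glutathione and thioredoxin genes were followed in the human line MDA-MB-231, derived from a triple-negative breast cancer that carries mutant p53, after 2 days of culture on soft or on stiff substrate. The set is a list of 42 gene symbols. A gene entered through the probe sets that the platform annotation gives to that symbol alone, and where a gene had several, the one brightest on average over all 8 arrays stood for it. This found 39 of the 42 genes among the 19775 genes with such a probe set. The other 3 were not analysed here. The soft group held 4 arrays and the stiff group 4 arrays, with replicates A to D in each. All 8 cultures were the same line in the same serum-containing medium, and the labels name no genetic change or drug in either group. The sources used here give neither the stiffness of the substrates nor their material, and results from 1 cell line may not carry over to other cells. The replicates are labelled biological, but how they were kept apart is not stated, and p-values therefore reflect only the spread among these arrays.

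NRF2, encoded by NFE2L2, is a transcription factor that the adaptor KEAP1 marks for degradation. When oxidants or electrophiles modify KEAP1, NRF2 accumulates, pairs with a small MAF protein such as MAFG and binds antioxidant response elements near genes for glutathione synthesis, the thioredoxin system, NADPH supply, iron storage and detoxification. NRF2 is regulated mainly as a protein, so the array values below are transcript levels and not NRF2 activity. Glutathione peroxidases and peroxiredoxins spend glutathione or thioredoxin to remove peroxides, and glutathione reductase and thioredoxin reductase restore both with NADPH.

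Promoter windows in RefSeq (GRCh38.p14), running from 250 bases before to 50 bases after an annotated start, were found for 30 of the 39 genes. The core of the antioxidant response element, TGACNNNGC, was searched on both strands. It occurred in at least 1 window of 10 of the 30 genes, against 16.1% of the 27305 genes in the promoter table. Windows per gene differ, and a match is a string of letters and not a shown binding site. Of the 6 genes that rose on soft, ME1 alone had a match. NQO1, GPX3 and CAT had none in this window, which says nothing about the rest of their regulatory sequence, and ABCC3 and AKR1B10 had no window. The ME1 window is shown because it is the one such promoter, and shorter stretches are shown for the matches of KEAP1, GCLM and TXNRD1, whose array values are given below. Capitals mark the match. Each stretch is read on the strand that carries the motif, while the ME1 window is read along the gene, so its second match appears there as the reverse complement. The first ME1 match, TGACTCAGC, also holds TGACTCA, the recognition sequence of AP-1 factors.
ME1 window, chr6:83431002-83431301, minus strand: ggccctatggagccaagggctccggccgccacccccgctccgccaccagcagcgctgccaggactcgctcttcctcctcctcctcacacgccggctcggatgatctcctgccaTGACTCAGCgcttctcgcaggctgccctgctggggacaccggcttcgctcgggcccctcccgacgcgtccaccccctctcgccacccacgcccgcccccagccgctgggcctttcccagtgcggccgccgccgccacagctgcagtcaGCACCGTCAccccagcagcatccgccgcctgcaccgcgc
KEAP1 match, chr19:10502784-10502812, plus strand: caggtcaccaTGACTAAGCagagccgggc
KEAP1 match, chr19:10502807-10502835, minus strand: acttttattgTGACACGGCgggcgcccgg
GCLM match, chr1:93909446-93909474, plus strand: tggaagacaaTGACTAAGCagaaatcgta
TXNRD1 match, chr12:104215670-104215698, plus strand: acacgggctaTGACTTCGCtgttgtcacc
TXNRD1 match, chr12:104215761-104215789, minus strand: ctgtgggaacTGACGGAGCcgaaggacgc
TXNRD1 match at a second start, chr12:104286920-104286948, minus strand: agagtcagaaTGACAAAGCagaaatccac

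The values are log2 RMA levels, so a difference of 1 is a doubling. They are written soft minus stiff, with the moderated standard error (SE) of limma, and a gene was called when its adjusted p was under 0.05 after Benjamini-Hochberg adjustment over 54613 probe sets. Arrays correlated at 0.9932 to 0.9982 over all probe sets. The stiff arrays stood apart among themselves on the second principal component (16.4% of the variance). Stiff A and B had 21.4 and 16.3 there, and stiff C and D had -21.5 and -11.8. Soft arrays ran from -13.9 (soft B, beyond stiff D) to 8.5 (soft D). The split of the stiff arrays was seen in the values and is not named in the labels. Results against either pair alone are given after the roles. A background level of 6.23 was set from 18 genes of other tissues, and 37 of the 39 genes lay above it in at least 1 group. The 5 measured markers of mesenchymal-type breast cancer cells (VIM, CD44, AXL, CAV1 and MSN) averaged 13.4 on every soft array and 13.4 to 13.5 on stiff arrays. Of these, AXL was called lower on soft by 0.23, at 13.00 on soft and 13.22 on stiff arrays (adjusted p = 0.0318), and CAV1 had all soft arrays below all stiff arrays without a call (-0.17, adjusted p = 0.123). Of 5 markers low or absent in triple-negative cells, PGR and CDH1 lay below background and ESR1, ERBB3 and GATA3 above it. ERBB3 was called higher on soft, at 7.18 on soft and 6.86 on stiff arrays (adjusted p = 0.00994). Of 12 markers of immune, endothelial, adipose and muscle cells, PECAM1 and DES alone exceeded background. PECAM1 was called higher on soft, at 8.01 on soft and 7.52 on stiff arrays (adjusted p = 0.00211), while the endothelial genes CDH5, VWF and KDR stayed below background. The endothelial list averaged 5.66 to 5.81 on soft arrays and 5.50 to 5.79 on stiff arrays, and the part of ERBB3, AXL or the endothelial list in the results was not tested.

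On soft, 6 of the 39 genes rose, none fell and 33 were not called by limma. At an unadjusted p under 0.05 limma gave 10 higher and 1 lower, the peroxidase GPX8, where 11.3% of all genes were higher and 13.7% lower at that level. Those that rose were the efflux pump ABCC3, the aldo-keto reductase AKR1B10, the secreted peroxidase GPX3, the quinone reductase NQO1, the NADPH-producing malic enzyme ME1 and catalase (CAT). Over all 19775 genes, 4.39% were called higher and 5.93% lower. The 6 genes are 15.4% of the 39. Among the 37 genes above background, 13.5% were called higher, against 7.05% of the 11459 genes above background. The median difference was 0.08 over the 39 genes and 0.01 over all genes, with 26 genes above 0, 12 below and 1 at 0. All 4 soft arrays lay above all 4 stiff arrays for 10 of the genes and below them for none, where these shares were 8.78% and 11.2% of all genes. No test was made of the set as a whole.

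**Figure D1:**
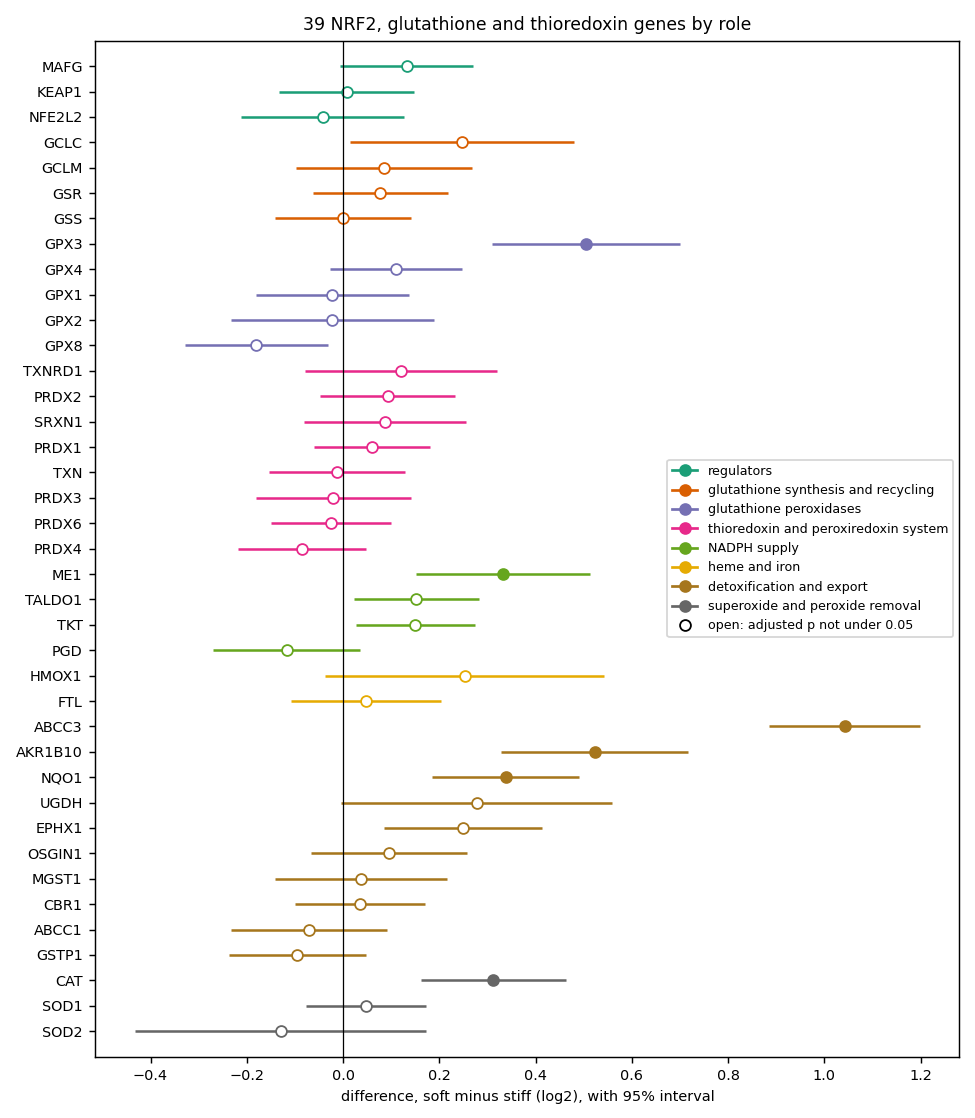
Difference in log2 RMA level, soft minus stiff, for each of the 39 genes (points) with its 95% interval (bars), ordered and coloured by role. Filled points have an adjusted p under 0.05: GPX3, ME1, ABCC3, AKR1B10, NQO1 and CAT, all to the right of 0.

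Among the regulators no gene was called. NFE2L2 had 11.64, 11.72, 11.73 and 11.57 on soft arrays A to D, against 11.61, 11.58, 11.85 and 11.79 on stiff arrays A to D. The ranges overlap, and the difference was -0.04 with a 95% interval from -0.21 to 0.13 (adjusted p = 0.805). KEAP1 had 10.88, 10.69, 10.82 and 10.82 on soft arrays, against 10.76, 10.74, 10.86 and 10.82 on stiff arrays. Its difference of 0.01 had an interval from -0.13 to 0.15. MAFG, the small MAF partner, differed by 0.13 (interval -0.01 to 0.27). A dimmer NFE2L2 probe set was called higher, at 6.38 on soft and 6.01 on stiff arrays (adjusted p = 0.0133). It lies near background, and the remaining NFE2L2 probe set, below background, differed by -0.12 (adjusted p = 0.551).

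Of the 10 detoxification and export genes, 3 rose: ABCC3, AKR1B10 and NQO1. ABCC3 encodes MRP3, an ATP-driven pump that exports glucuronide and glutathione conjugates. It had 9.23, 9.22, 9.20 and 9.09 on soft arrays A to D, against 8.23, 7.98, 8.16 and 8.20 on stiff arrays A to D. Every soft array exceeded every stiff array by a wide margin compared with the spread inside either group. The difference was 1.04, a 2.06-fold change (SE 0.0712, adjusted p = 6.11e-05), the largest of the 39. Of the 5 ABCC3 probe sets 4 were called higher, by 1.04, 0.78, 0.45 and 0.42. The fifth, which is also the one without the suffix that marks shared probes, differed by 0.17 and was not called (adjusted p = 0.167), with levels of 6.39 on soft and 6.22 on stiff arrays.

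AKR1B10, an aldo-keto reductase that reduces retinal and lipid aldehydes, had 5.89, 6.24, 6.23 and 6.19 on soft arrays, against 5.51, 5.60, 5.60 and 5.75 on stiff arrays. The groups do not overlap, although soft A came close to stiff D. The difference was 0.52 (SE 0.0888, adjusted p = 0.00529). Both group means, 6.14 on soft and 5.61 on stiff, lay below the background level. AKR1B10 has a single probe set here, whose suffix marks probes shared between transcripts, and its paralogs are close in sequence.

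NQO1 reduces quinones in a step that avoids semiquinone radicals and is a widely used marker gene of NRF2. It had 13.40, 13.49, 13.49 and 13.50 on soft arrays, against 13.02, 13.06, 13.27 and 13.18 on stiff arrays. The lowest soft array was above the highest stiff array, and stiff C and D were closer to soft than stiff A and B were. The difference was 0.34, or 1.26-fold (SE 0.0698, adjusted p = 0.0132). The other NQO1 probe sets were called too, by 0.36 (adjusted p = 0.00831) and 0.43 (adjusted p = 0.00608).

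Of the remaining 7 detoxification genes measured, none was called. EPHX1, the microsomal epoxide hydrolase, had 6.35 to 6.68 on soft arrays, against 6.21 to 6.24 on stiff arrays. These ranges do not overlap, yet the difference of 0.25 missed the threshold (adjusted p = 0.0613). UGDH, which makes the UDP-glucuronate used for conjugation, had 11.39, 11.62, 11.54 and 11.57 on soft arrays, against 11.04, 10.95, 11.55 and 11.47 on stiff arrays. Stiff A and B were low and stiff C and D lay within the soft range. The glutathione transferases GSTP1 and MGST1, the carbonyl reductase CBR1, the exporter ABCC1 and the growth inhibitor OSGIN1 differed by -0.10 to 0.10.

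**Figure D2:**
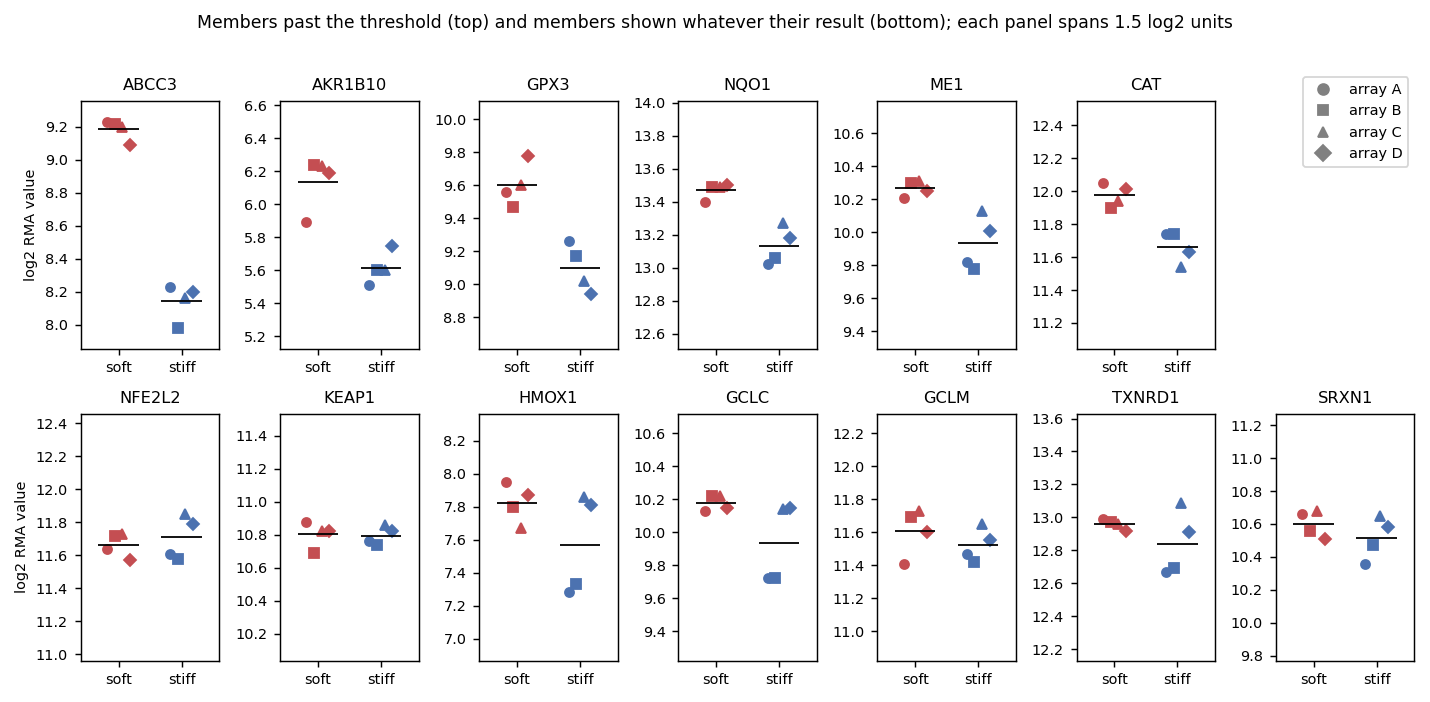
Log2 RMA level on each array (points, marker shape for the replicate letter) with the group mean (line), soft left of stiff in each panel, for the 6 genes that rose and 7 genes shown whatever their result. Panels share a span of 1.5 log2 units but not a position, so heights are not compared between genes. HMOX1 and GCLC show stiff A and B low and stiff C and D at the level of soft.

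GPX3 is a secreted selenoprotein that removes peroxides with glutathione. It had 9.56, 9.47, 9.60 and 9.78 on soft arrays, against 9.26, 9.17, 9.02 and 8.94 on stiff arrays, without overlap. Its difference was 0.51, or 1.42-fold (SE 0.0889, adjusted p = 0.00632), and the other GPX3 probe set differed by 0.50 (adjusted p = 0.00631). The other peroxidases of the family were not called. GPX8, which sits in the endoplasmic reticulum, had the most negative difference of the 39 genes, with 10.38 to 10.59 on soft arrays, against 10.57 to 10.72 on stiff arrays. That difference, -0.18, missed the threshold (adjusted p = 0.129). It was called when probe sets below background were left out (adjusted p = 0.0475) and with the trended, robust variance model (adjusted p = 0.0498). A second, dimmer GPX8 probe set differed by -0.19 and was not called (adjusted p = 0.223). Its soft arrays, at 8.77 to 9.16, lay below its stiff arrays, at 9.18 to 9.30. The lipid peroxide reductase GPX4 differed by 0.11 and the cytosolic GPX1 by -0.02. GPX2 lay below background in both groups, at 4.98 on soft and 5.01 on stiff arrays.

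Catalase degrades hydrogen peroxide without a thiol cofactor. CAT had 12.05, 11.90, 11.94 and 12.01 on soft arrays, against 11.74, 11.74, 11.54 and 11.63 on stiff arrays. The groups do not overlap, and the difference was 0.31, or 1.24-fold (SE 0.0685, adjusted p = 0.0171). The call was lost without stiff D (adjusted p = 0.0505), with a difference of 0.30. The next brightest CAT probe set differed by 0.23 and was not called (adjusted p = 0.119). Cytosolic superoxide dismutase SOD1 differed by 0.05. SOD2, its mitochondrial counterpart, is read from 1 probe set only here, with no other to compare. It had 7.10, 7.47, 7.67 and 7.89 on soft arrays, against 7.53, 7.71, 7.71 and 7.70 on stiff arrays. Soft A was lowest and soft D highest of all 8, and the interval of the difference, -0.43 to 0.17, is among the widest of the set.

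ME1, cytosolic malic enzyme, forms NADPH from malate, and its promoter window is the one printed above. It had 10.21, 10.30, 10.31 and 10.25 on soft arrays, against 9.82, 9.78, 10.13 and 10.01 on stiff arrays. All soft arrays were above all stiff arrays, with stiff C nearest to them. The difference was 0.33, or 1.26-fold (SE 0.0821, adjusted p = 0.029). This was the least stable of the 6 calls. It was lost without soft B (adjusted p = 0.0699), soft C (0.0585), soft D (0.0624), stiff A (0.0758) or stiff B (0.0846), with differences of 0.28 to 0.34 there. A second ME1 probe set differed by 0.20 (adjusted p = 0.308), and the remaining one, below background, by -0.03.

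The 3 pentose phosphate enzymes differed in sign. TALDO1 and TKT, which belong to the non-oxidative branch, had soft arrays above stiff arrays without overlap. TALDO1 had 12.76 to 12.83 on soft arrays, against 12.58 to 12.72 on stiff arrays, and TKT had 12.31 to 12.40 on soft arrays, against 12.18 to 12.26 on stiff arrays. Their differences of 0.15 each missed the threshold (adjusted p = 0.146 and 0.131). A second, dimmer TKT probe set was called higher by 0.22 (adjusted p = 0.0347). PGD, of the NADPH-producing oxidative branch, differed by -0.12, with an interval from -0.27 to 0.04.

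None of the 4 genes of glutathione synthesis and recycling was called. GCLC, the catalytic subunit of the rate-limiting ligase, had 10.13, 10.22, 10.22 and 10.15 on soft arrays, against 9.72, 9.72, 10.14 and 10.15 on stiff arrays. Stiff A and B were low by about the same amount, while stiff C and D fell inside the soft range. The difference was 0.25 (adjusted p = 0.187). GCLM, the modifier subunit, had 11.41, 11.69, 11.73 and 11.60 on soft arrays, against 11.47, 11.42, 11.65 and 11.55 on stiff arrays. Soft A was the lowest array of all, and the difference of 0.09 had an interval from -0.10 to 0.27. GSR, glutathione reductase, differed by 0.08, and GSS, glutathione synthetase, by 0, with an interval from -0.14 to 0.14.

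None of the 8 thioredoxin and peroxiredoxin genes was called, and their differences lay between -0.09 and 0.12 with intervals inside -0.22 to 0.32. Thioredoxin reductase TXNRD1 had 12.99, 12.97, 12.96 and 12.92 on soft arrays, against 12.67, 12.69, 13.09 and 12.91 on stiff arrays. Its soft arrays were close together, and the stiff arrays ran from the lowest to the highest value of the 8. SRXN1, sulfiredoxin, which repairs overoxidised peroxiredoxins, had 10.66, 10.56, 10.68 and 10.51 on soft arrays, against 10.36, 10.47, 10.65 and 10.58 on stiff arrays, with overlapping ranges. TXN differed by -0.01 at its bright probe set. Another, dimmer TXN probe set was called lower by 0.38, at 8.77 on soft and 9.15 on stiff arrays (adjusted p = 0.0233). The peroxiredoxins PRDX1, PRDX2, PRDX3, PRDX4 and PRDX6 differed by 0.06, 0.09, -0.02, -0.09 and -0.03. PRDX1 had soft arrays at 13.58 to 13.66, above stiff arrays at 13.55 to 13.57, although its difference was small and not called.

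HMOX1, heme oxygenase, which frees iron from heme, had 7.95, 7.80, 7.67 and 7.87 on soft arrays, against 7.28, 7.33, 7.86 and 7.81 on stiff arrays. Stiff A and B were well below every soft array and stiff C and D inside the soft range. Its difference of 0.25 was not called (adjusted p = 0.289), and the interval ran from -0.04 to 0.54. FTL, the ferritin light chain that stores iron, had 14.34 to 14.42 on soft arrays, against 14.22 to 14.47 on stiff arrays, and differed by 0.05.

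**Figure D3:**
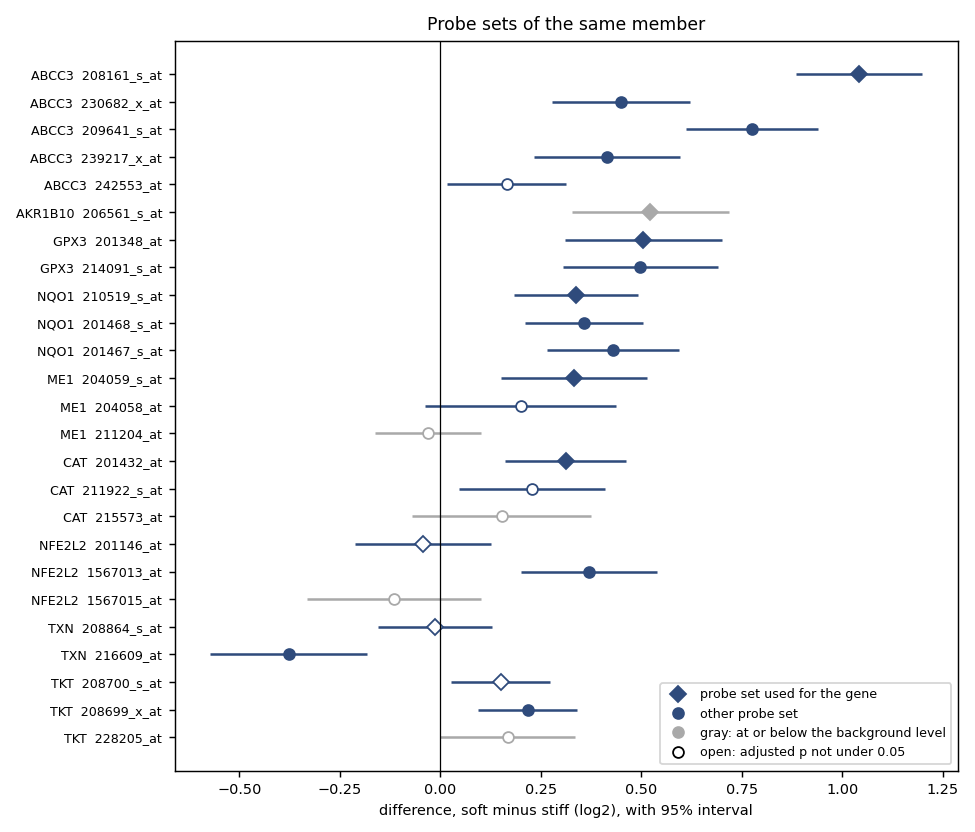
Difference in log2 RMA level, soft minus stiff, with its 95% interval for each probe set of the 6 genes that rose and of NFE2L2, TXN and TKT. Diamonds are the probe sets used for the genes, grey marks lie at or below background and filled marks have an adjusted p under 0.05; the probe sets of GPX3 and NQO1 lie together, while those of ABCC3 spread from 0.17 to 1.04.

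Since stiff A and B lay apart from stiff C and D on the second principal component, the 4 soft arrays were also set against each pair. The comparisons share their soft arrays. Against stiff A and B, 7 genes were higher and none lower, where 2.92% of all genes were called higher and 2.66% lower. They were ABCC3, AKR1B10, NQO1, ME1, GCLC, HMOX1 and UGDH. Against stiff C and D, 3 genes were higher and none lower, with 2.27% of all genes called higher and 1.96% lower. They were ABCC3, GPX3 and CAT, so that ABCC3 alone was called against both pairs, by 1.08 and 1.01. At an unadjusted p under 0.05 limma gave 15 higher and 2 lower against stiff A and B, where 9.14% of all genes were higher and 11.4% lower. Against stiff C and D it gave 8 higher and 0 lower, where 10.1% of all genes were higher and 11.4% lower.

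Differences moved in both directions between the pairs. HMOX1 differed by 0.52 from stiff A and B (adjusted p = 0.0182) and by -0.01 from stiff C and D (adjusted p = 0.962). UGDH differed by 0.54 and 0.02, GCLC by 0.46 and 0.04, and TXNRD1 by 0.28 and -0.04, in the same order. These are genes at which stiff C and D had the level of soft. NQO1 kept a positive difference against both pairs, at 0.43 and 0.25, as did ME1 at 0.47 and 0.20, both without a call against stiff C and D (adjusted p = 0.114 and 0.199). AKR1B10 differed by 0.58 and 0.46 (adjusted p = 0.0602 for the second). GPX3 and CAT ran the other way, with smaller differences from stiff A and B, 0.39 for GPX3 (adjusted p = 0.06) and 0.24 for CAT (adjusted p = 0.135), than from stiff C and D, 0.62 for GPX3 (adjusted p = 0.0131) and 0.39 for CAT (adjusted p = 0.0331). NFE2L2 differed by 0.07 and -0.16, called against neither. Whether the pairs differ was not tested, and the labels name no batch that would separate them.

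**Figure D4:**
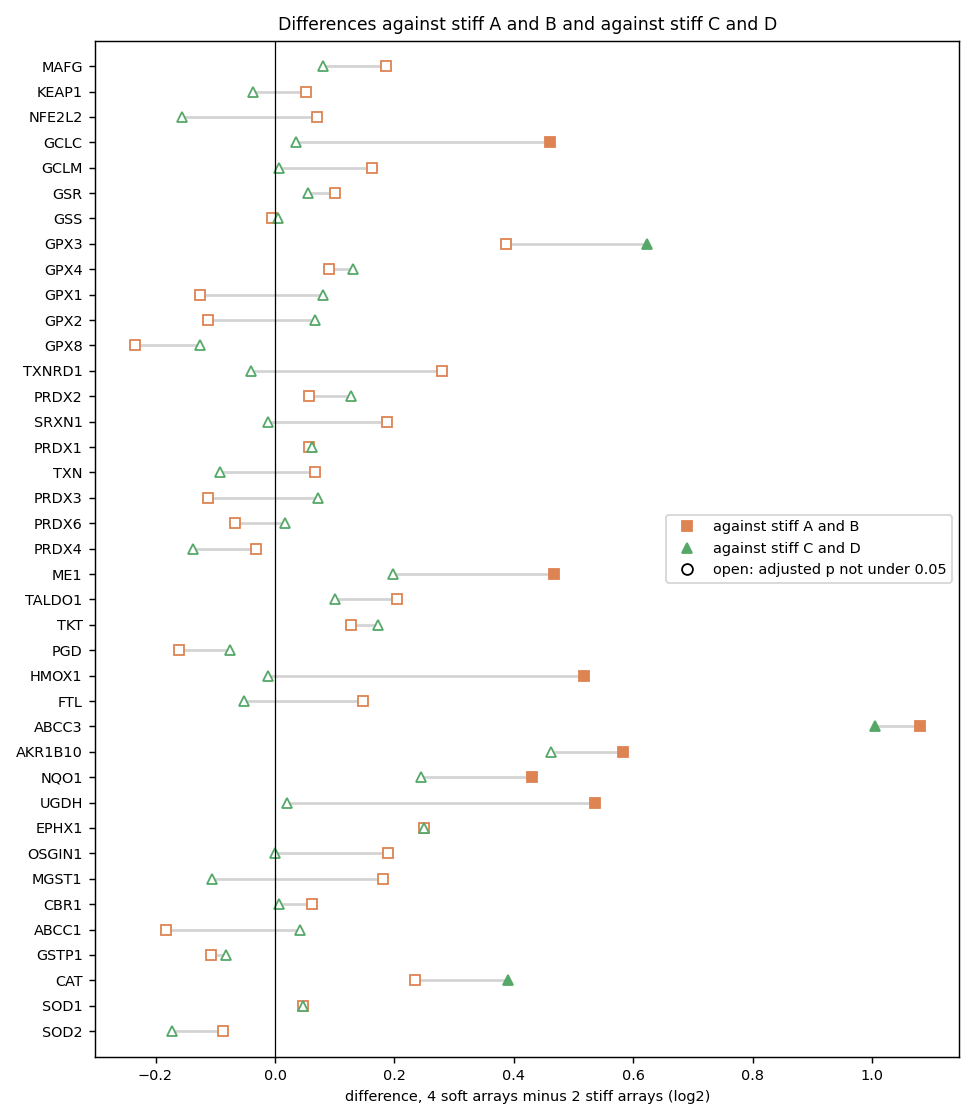
Difference in log2 RMA level of the 4 soft arrays minus stiff A and B (squares) or minus stiff C and D (triangles) for each of the 39 genes, joined by a line. Filled marks have an adjusted p under 0.05; HMOX1, UGDH and GCLC have a long line that ends near 0 for stiff C and D, while both marks of ABCC3 lie above 1.

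The wider pathway was read from a list of 101 further genes for NRF2 control, glutathione and thioredoxin handling, NADPH supply, heme breakdown and aldehyde or drug metabolism, of which 96 were measured. On soft, 10 rose, 7 fell and 79 were not called (10.4% and 7.29%), against 4.39% and 5.93% of all genes. The median difference was 0.04. Of the 96 genes, 88 lay above background, and all 10 increases and all 7 decreases were among these 88. Among all genes above background, 7.05% were called higher and 9.67% lower. The 6 largest increases were in ALDH3A2, the fatty aldehyde dehydrogenase (0.80, adjusted p = 0.000139), the ubiquitin ligase TRIM16 (0.58), the biliverdin reductase BLVRB (0.51), the aldehyde dehydrogenases ALDH3A1 (0.51) and ALDH2 (0.45), and the microsomal glutathione transferase MGST3 (0.37). ALDH3A2 had 11.77, 11.65, 11.62 and 11.61 on soft arrays, against 10.82, 10.81, 10.86 and 10.98 on stiff arrays. The 6 largest decreases were in CHAC2, which degrades glutathione (-0.51, adjusted p = 0.0249), RPIA of the pentose phosphate pathway (-0.43, adjusted p = 0.00344), GGCT of the gamma-glutamyl cycle (-0.38), the mitochondrial NAD kinase NADK2 (-0.32), the pyrimidine enzyme DHODH (-0.28) and the mitochondrial malic enzyme ME2 (-0.25). Among the genes just named, ALDH3A2, BLVRB, ALDH2 and RPIA were called against each pair of stiff arrays alone. TRIM16 differed by 0.84 from stiff A and B (adjusted p = 0.00493) and by 0.32 from stiff C and D (adjusted p = 0.17), and MGST3 and DHODH too were called against stiff A and B only. ALDH3A1 differed by 0.36 from stiff A and B (adjusted p = 0.0851) and by 0.65 from stiff C and D (adjusted p = 0.0141). CHAC2, GGCT, NADK2 and ME2 were called against neither pair, with differences close to those against all 4 stiff arrays. Of the smaller changes in the list, IDH1 was called against each pair and GLRX and ABCG2 against stiff A and B only. BLVRA and TXNDC12 were called against neither pair. The number of decreases moved more than that of increases when arrays were left out. Leaving out 1 array gave a count of 3 decreases without soft A, 5 without soft B, 7 without soft C and 3 without soft D. It gave 4 without stiff A, 2 without stiff B, 3 without stiff C and 2 without stiff D. The increases in the list numbered 8 to 12. Over all genes the decreases moved more as well, from 548 without stiff B to 1199 without soft C. The increases over all genes were 544 without stiff B and 841 without soft C.

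**Figure D5:**
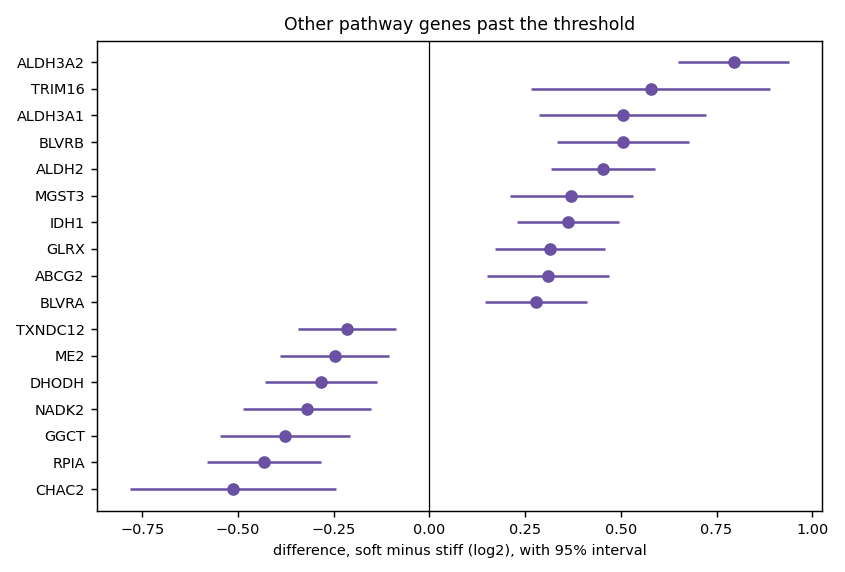
Difference in log2 RMA level, soft minus stiff, with its 95% interval for the 17 genes of the wider pathway list that passed the threshold. The 10 increases run up to 0.80 for ALDH3A2 and the 7 decreases down to -0.51 for CHAC2.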

How the data were processed

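Total RNA of 8 cultures was hybridised to Affymetrix arrays, 1 array per culture. The deposited values are log2 levels per probe set made by the authors with RMA, per the submitters' processing notes; the log2 scale was read from the values. RMA equalises arrays, so a shift common to all genes is removed, and it compresses differences of dim probe sets. Neither its software nor a version is stated in the sources used here.

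Without 62 control probe sets, 54613 remained, of which 41091 carried 1 symbol, 1801 several and 11721 none. Soft minus stiff was fitted with limma 3.58.1 in R 4.3.3 (lmFit, eBayes without trend, all 8 arrays, two-sided), with no filter. The background level is the 95th percentile over 18 genes taken as silent in breast cells. Precision is limited by the number of arrays. The fit was also run on simulated data whose noise was independent between arrays. These simulated data held no split among the stiff arrays, so the run says nothing about its effect on the calls.

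The members, the wider pathway list and the alternatives were chosen with earlier results of these data known. Array values are given for the genes past the threshold and for 8 genes named whatever their result, and for a few others chosen after their values were seen. Alternatives were other scalings, filters, variance models and probe set choices, array weights, a replicate block, other thresholds, leaving out each array, and either pair of stiff arrays.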

Additional observations from a re-analysis of the deposited data

Results flagged for a closer look

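In 6 of the 78 groups of 4 arrays (39 genes, soft and stiff), 1 array lay far from the other 3 by Dixon's ratio, where chance flags about 1 in 20 groups. Among genes that rose, soft A was low for NQO1 (13.4, with the next array at 13.49) and for AKR1B10 (5.89, with the next at 6.19), toward the stiff arrays in both cases. Soft D was high for MAFG (10.16, next 10.05) and soft B low for TALDO1 (12.76, next 12.82). Stiff A was low for CBR1 (9.34, next 9.46) and for SOD2 (7.53, next 7.70).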

How the results depend on the processing

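The count of genes that rose on soft, 6 of 39, was 4 to 8 in all alternatives run except against stiff C and D alone and at an adjusted p under 0.01, where it was 3 each. No gene fell in limma's fit with all arrays. GPX8 alone fell above background and with the trended, robust variance model. TXN alone fell, through its dimmer probe set, when probe sets without a shared-probe suffix were taken where a gene had one. Genes with suffixed probe sets only, among them NQO1 and AKR1B10, kept theirs, so their calls could not change with that choice. The ABCC3 and ME1 calls were lost with that choice of probe sets, and the ME1 call with the mean of all its probe sets (0.17, adjusted p = 0.164). The median difference of the 39 genes was 0.035 against stiff C and D alone. No called gene changed sign in any alternative. In the wider pathway list the 10 increases were 5 against stiff C and D alone and 4 at an adjusted p under 0.01, and the 7 decreases were 3 against stiff A and B alone, 2 against stiff C and D alone and 1 at an adjusted p under 0.01, and 2 to 7 when 1 array was left out. With the replicate block 6 of the 39 genes were higher and the list's decreases were 4. Same-lettered arrays did not deviate together (correlations of 0.122, -0.118, 0.0516 and -0.0447 for A to D), and 1 of 4 soft and 1 of 4 stiff arrays matched its own letter best. Over all genes, the increases and decreases (4.39% and 5.93% of genes) numbered 1332 and 1859 above background, 319 and 284 at an adjusted p under 0.01, 448 and 387 against stiff C and D alone, 578 and 526 against stiff A and B alone, and as few as 544 and 548 without stiff B. At an adjusted p under 0.05, EPHX1 was called in 5 of the 20 alternatives other than the thresholds, TKT in 4 and TALDO1 in 2. Genes near or below background, among them AKR1B10 and EPHX1, are limited by signal. The cause of these changes was not tested, and some alternatives also hold fewer genes or arrays.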
